A study of Mus musculus with 30 samples.

Results

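The kidney transcriptome of wild-type (WT) mice was compared after a high-fat diet (HFD) and a standard-fat diet (SFD). The 8 kidneys were taken by their labelled genotype and diet, 4 from WT-SFD and 4 from WT-HFD mice, out of 30 libraries of aorta and kidney in all. No measured value decided which kidneys were taken, though the comparison was chosen with earlier results of these data known. WT mice carried a tamoxifen-inducible Cre recombinase (CreERT2) under the smooth muscle promoter Smmhc, also named Myh11, and had no loxP sites. The knockout (KO) mice set beside them carried the same Cre with Egfr flox/flox, so that the epidermal growth factor receptor gene was deleted in vascular smooth muscle. All mice were male and labelled C57Bl6J, although the protocol names C57BL/6N for the Cre line and C57BL/6 for the floxed line. All received tamoxifen, 1 mg per day for 5 days. HFD began 7 days after tamoxifen, at 6 weeks of age, and lasted 18 weeks. Each library came from the kidney of 1 mouse. Blood sugar, body weight and urine values of these mice were not analysed here.

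Total counts per WT kidney ran from 16354880 (mouse SFD2) to 28331314 (mouse SFD3), with a median of 20679014 on SFD and 20254358 on HFD. The 28 pairs of WT kidneys were close to one another. Pearson's r of log2 values, taken across genes, which are not independent replicates, was 0.983 to 0.993 in the 12 pairs on 1 diet and 0.977 to 0.991 in the 16 pairs across diets. No library was a copy of another. Mouse SFD2 stood apart on SFD by its renin level, and mice SFD2 and SFD4 by adipocyte genes, as given with the cell markers, and calls lost without both are given with the genes. Chromosomes 9, X and Y, the mitochondrial genome and chromosome 8 beyond position 97565603 had no counts and were not analysed here, which takes 2693 of 22026 protein-coding genes (12.2%) out of view. Of 41128 genes, 22717 had a count in at least 1 WT kidney and 15034 were abundant enough to be tested. A kidney piece holds many cell types, and fewer cells of a type and less RNA per cell cannot be told apart.

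Most of the mass of the kidney cortex is proximal tubule, whose cells take back glucose, phosphate, amino acids and filtered proteins from the forming urine, secrete organic anions and drugs, and make glucose from lactate and glutamine. They burn fatty acids for energy and carry many enzymes otherwise known from the liver, under the control of liver-type transcription factors such as HNF1 and HNF4. A high-fat diet in C57BL/6 mice is a common model of obesity with high blood glucose, which raises the load of glucose and lipid that these cells handle.

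The letters read by HNF1 and HNF4 were looked up in the promoters of the called genes. The letters were chosen after the results had been seen: GTTAATNAT for HNF1 and CAAAGTCCA for HNF4, on both strands, in RefSeq windows from 250 bases before to 50 after a start (GRCm38.p6). The windows hold sequence for 78 of the 117 genes higher in HFD and 14 of the 20 lower genes. The HNF1 letters occurred in 263 of 32851 windows of all genes (0.801%), and in windows of 3 higher genes (Gc, Prodh2 and Slc22a29) and no lower gene. The HNF4 letters occurred in 156 windows (0.475%), and in windows of 5 higher genes (Cyp2c69, Cyp2c40, Agxt2, B3gnt3 and Sec16b) and no lower gene. Some genes have several windows, so these shares describe and do not test. For comparison, the E-box letters CACGTG occurred in 2349 windows (7.15%) and in those of 8 higher genes and no lower gene. Letters of a sterol-response element, TCACNCCAC, occurred in 408 windows (1.24%), in none of the higher genes and in 1 lower gene, Ndrg2. The stretches around the match in 5 genes whose values follow are printed 5′ to 3′ on the strand of the gene, with the match in capitals.
Gc, HNF1 letters (chr5:89457922-89457970, minus strand): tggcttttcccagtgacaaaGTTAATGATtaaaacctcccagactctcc
Prodh2, HNF1 letters on the other strand (chr7:30493511-30493559, plus strand): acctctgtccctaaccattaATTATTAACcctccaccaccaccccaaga
Slc22a29, HNF1 letters on the other strand (chr19:8218904-8218952, minus strand): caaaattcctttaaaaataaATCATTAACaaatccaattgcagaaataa
Agxt2, HNF4 letters (chr15:10358492-10358540, plus strand): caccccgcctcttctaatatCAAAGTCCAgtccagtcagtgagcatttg
Cyp2c69, HNF4 letters (chr19:39886816-39886864, minus strand): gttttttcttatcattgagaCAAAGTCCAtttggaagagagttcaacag
The 49 letters printed for Cyp2c69 are the same in its neighbour Cyp2c40 (chr19:39812831-39812879, minus strand). A match is a run of letters and not a measured binding site.

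HFD changed a small share of the kidney transcriptome, and mostly upwards. Of 15034 genes, 137 (0.911%) passed 0.05 after Benjamini-Hochberg adjustment of the p values of the quasi-likelihood F test of edgeR, 117 higher (0.778%) and 20 lower (0.133%) in HFD. The lower genes became 7 without mouse SFD4, 7 without mouse HFD1 and 9 with the 8 WT kidneys alone. The higher genes were then 87, 85 and 102. At an adjusted p under 0.001 there were 23 (0.153%), 22 higher and 1 lower. The groups did not overlap in 133 of the 137, where 753 of all genes tested (5.01%) had groups that did not overlap, 454 higher and 299 lower. The median log2 fold change was 1.27 among the higher and -0.99 among the lower genes, beside 0.00 over all genes tested, and 94 of the 137 differed more than 2-fold. On FPM, which are counts scaled to library size and given per 1e6 with TMM factors, a rule of effect size alone was also used (Cohen's d beyond 2, ratio of means beyond 1.5 and over 5 FPM). By it, 167 of 10801 genes (1.55%) passed, 136 higher and 31 lower. The effect size rule and edgeR shared 95 genes, 56.9% of the former and 69.3% of the latter. Without mice SFD2 and SFD4, which cuts SFD to 2 kidneys, 57 genes passed edgeR's test, 54 of them among the 137, and all 137 kept their direction. The named genes whose call ended without some single kidney lost it here too, apart from Tmprss9 and Ttr. Further calls lost without these mice are given with the gene. Spp2 and Zmynd15 were not followed through these settings.

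**Figure D1:**
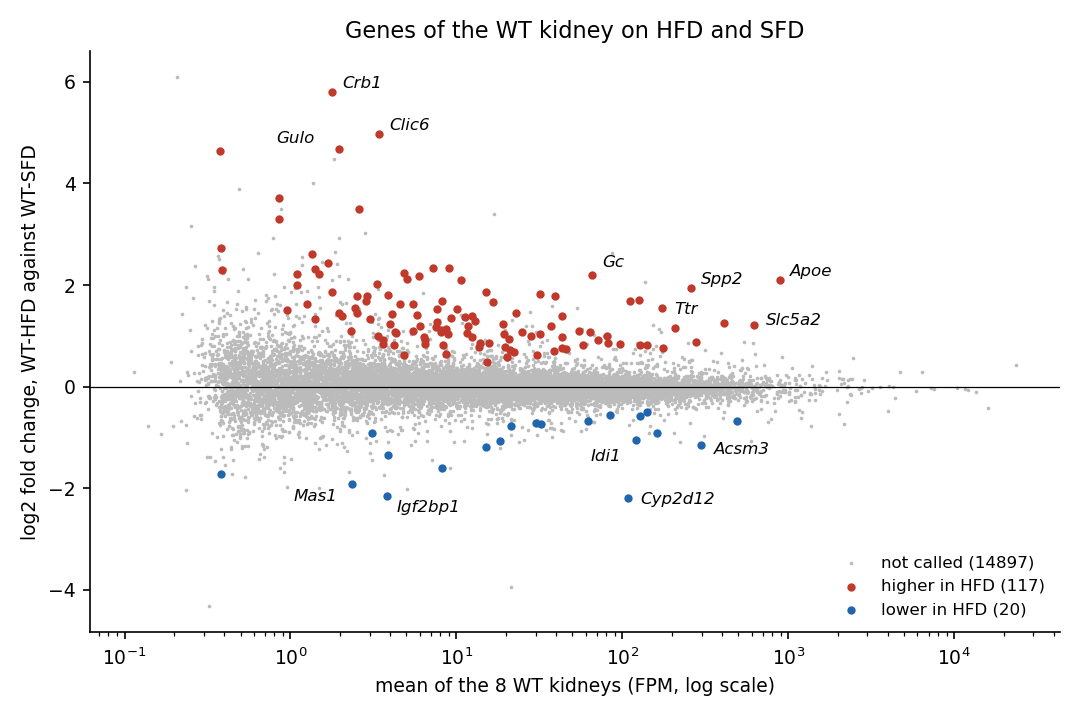
Mean level in the 8 WT kidneys (FPM, log axis) against the log2 fold change of WT-HFD over WT-SFD for 15034 genes, 1 point per gene. The 117 higher genes (red) reach from below 1 FPM to Apoe near the top of the range, and the 20 lower genes (blue) include Cyp2d12, Acsm3 and Idi1.

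Values are in FPM and stand in the order of mice SFD1 to SFD4 and HFD1 to HFD4. Changes are log2 fold changes from edgeR ± SE. The test gives no SE, so it was taken as the absolute change over the square root of the F statistic, which is approximate. Genes of secreted proteins were among the abundant higher genes. The summed liver marker list, given below, was higher on HFD without overlap, but it holds the called gene Ttr. Ttr was the only member of the list whose groups did not overlap. The part of liver transcripts in these results was not tested. Apoe, the apolipoprotein that carries lipids between cells (chr7:19696109-19699188, minus strand, GRCm38), was at 289.9, 464, 321 and 275 FPM on SFD and at 1322, 1928, 1293 and 1211 FPM on HFD. Every HFD kidney was above every SFD kidney, and mouse HFD2 was the highest. Apoe rose 4.27-fold (2.09 ± 0.22, edgeR adjusted p = 2.2e-04). Per kilobase of exon its level went from 158 to 673 FPM.

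Gc, the vitamin D-binding protein of plasma (chr5:89417522-89457898, minus strand), whose promoter stretch is printed first above, was at 30.7, 29.8, 15.9 and 17.8 FPM on SFD and 143.5, 93.8, 105 and 85.1 FPM on HFD, a change of 2.19 ± 0.25 (edgeR adjusted p = 4.2e-04). Ttr, which carries thyroxine and the retinol-binding protein (chr18:20665280-20674321, plus strand), was at 76.2, 73.2, 71.2 and 133 FPM on SFD and 238, 249.6, 267 and 283 FPM on HFD. Mouse SFD4 was the highest on SFD yet stayed below every HFD kidney, and the change was 1.55 ± 0.29 (edgeR adjusted p = 0.0122). Without mouse SFD3 the adjusted p of Ttr was 0.0567, and without both HFD1 and SFD2 it was 0.0882. Spp2, a secreted phosphoprotein chosen after its values were seen, was at 94.8, 122, 92.7 and 117 FPM on SFD and 359, 535, 324 and 419 FPM on HFD, a 3.84-fold rise (edgeR adjusted p = 8.9e-04). F5, coagulation factor V, went from a mean of 2.41 ± 1.81 to 12.1 ± 4.49 FPM (SD, n = 4), Tfpi, the inhibitor of tissue factor, from 5.25 ± 0.732 to 13.3 ± 1.29 FPM, and its relative Tfpi2 from 4.58 ± 0.373 to 10.4 ± 1.88 FPM. All 3 passed the test (edgeR adjusted p = 0.00659, 0.00139 and 0.00362), with no overlap of groups, and they were named after their values were seen. Without mice SFD2 and SFD4 their adjusted p was 0.125, 0.0537 and 0.102, so that none of these calls held. Pla2g5, a secreted phospholipase, rose by 1.52 ± 0.19 (edgeR adjusted p = 5.1e-04).

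**Figure D2:**
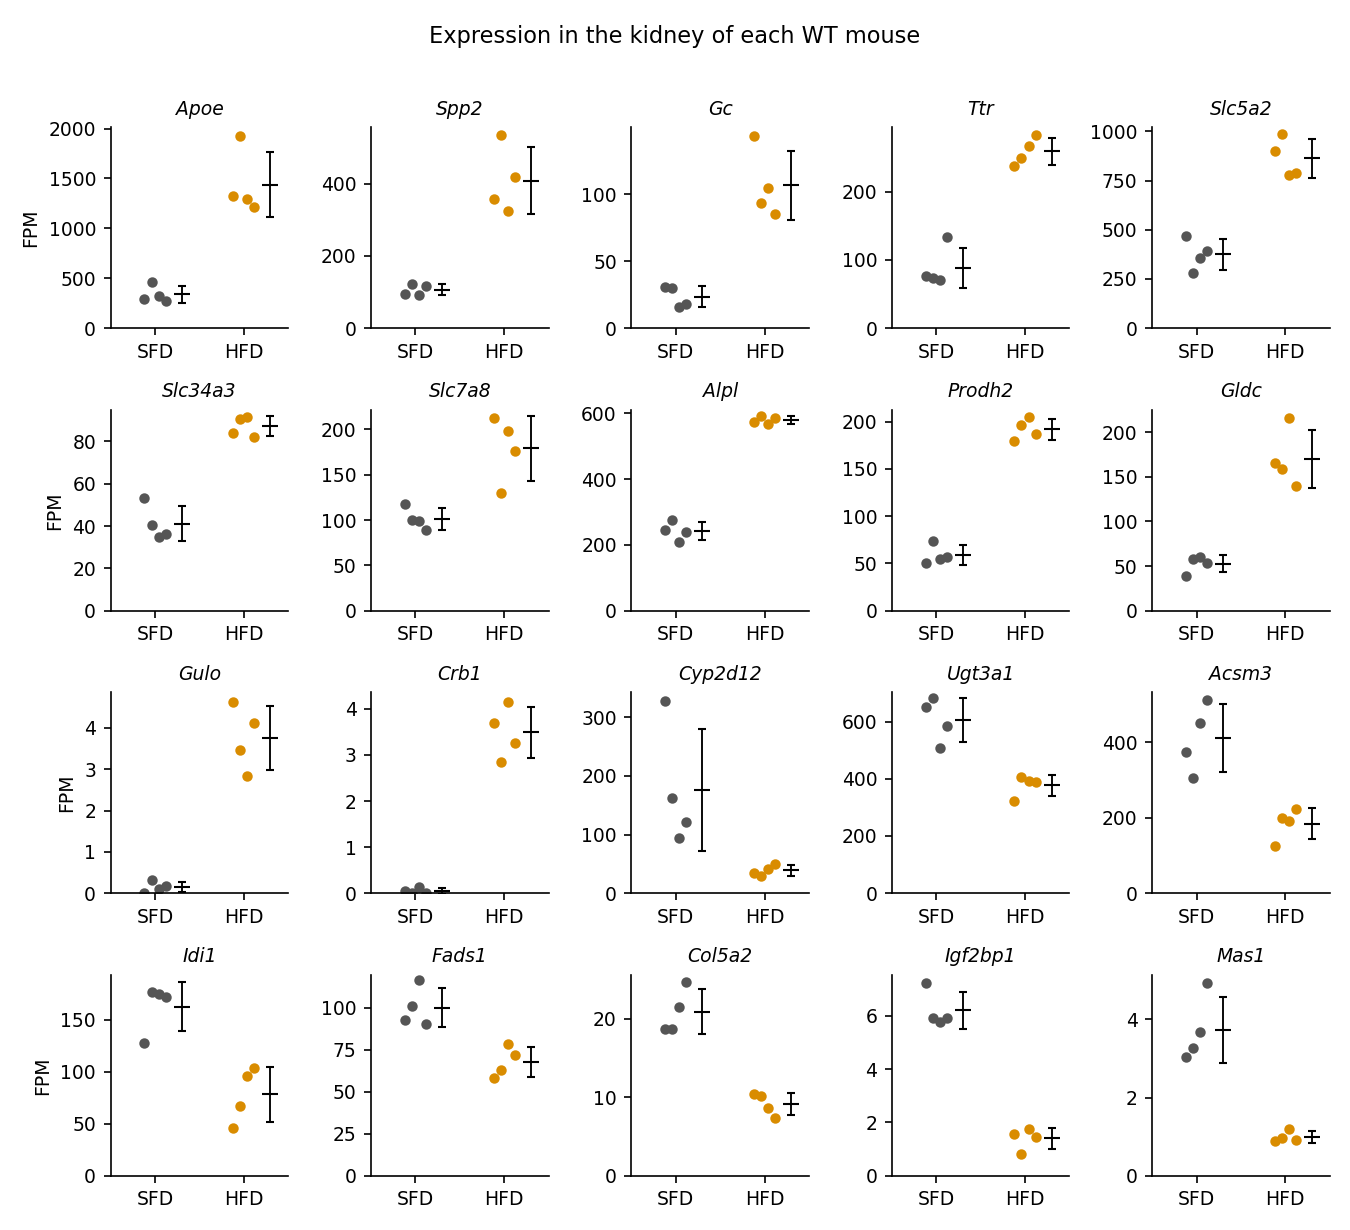
FPM in the kidney of each WT mouse for 20 of the called genes, with SFD in grey, HFD in orange and bars for mean ± SD (n = 4), each panel from 0. In every panel the 4 HFD points lie apart from the 4 SFD points, above in 12 panels and below in 8.

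Several of the higher genes encode transporters of the proximal tubule. Slc5a2, the luminal sodium-glucose transporter SGLT2 (chr7:128265657-128272430, plus strand), was at 469.7, 281.5, 355 and 391 FPM on SFD and 899.9, 985, 778 and 789.9 FPM on HFD. The lowest HFD kidney was well above the highest SFD kidney, and the level rose 2.31-fold (1.20 ± 0.21, edgeR adjusted p = 0.00568). The call was lost without mice SFD2 and SFD4 (adjusted p 0.129) and without HFD1 and SFD2 (0.0601), and the change was then 1.06 in both fits. Of 14 genes tested on the glucose transporter list, Slc5a2 alone passed in edgeR, beside 0.778% called higher of all genes. The list also holds relatives that mainly carry other solutes, such as Slc5a8 and Slc5a12. Slc2a2, the basolateral exit for glucose, stood at 0.47 ± 0.14 (edgeR adjusted p = 0.228) and Slc5a1, the transporter of the late proximal tubule, at 0.06 ± 0.13. Part of Slc5a2 (597 of 2897 exon bases, 20.6%) lies opposite BC017158, which stood at 0.13, and the strand setting of the counting is not stated.

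Slc34a3, the phosphate transporter NaPi-IIc (chr2:25228898-25234364, minus strand), was at 53.1, 40.4, 34.7 and 36.4 FPM on SFD and 83.9, 90.7, 91.8 and 82.3 FPM on HFD and rose 2.12-fold (1.08 ± 0.16, edgeR adjusted p = 0.0019). Without mice SFD2 and SFD4 its adjusted p was 0.0742. The far more abundant Slc34a1 (NaPi-IIa) stood at -0.05, and Slc34a3 was the 1 gene of 19 on the phosphate, calcium and vitamin D list to pass. Slc7a8, a basolateral exchanger of neutral amino acids, was at 118, 100.1, 99.3 and 88.5 FPM on SFD and 212, 130.1, 198 and 176 FPM on HFD (0.82 ± 0.17, edgeR adjusted p = 0.0288). Its groups did not overlap, but mouse HFD2 lay close to the SFD range, and leaving out any of 6 single kidneys ended the call (adjusted p 0.0689 to 0.124). It was the only gene of 21 amino acid transporters to pass, and both lists stand beside 0.911% called of all genes. Slc38a4, a sodium-coupled amino acid transporter outside that list, rose by 1.79 ± 0.24 (edgeR adjusted p = 8.0e-04).

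Among 33 organic anion and cation transporters, 2 rose and none fell (median 0.03), beside 0.778% higher and 0.133% lower of all genes tested. Slc22a29, a relative of the organic anion transporters, was at 1.57, 2.76, 2.81 and 1.75 FPM on SFD and 7.68, 6.53, 7.39 and 5.93 FPM on HFD (1.62 ± 0.24, edgeR adjusted p = 0.00146). Abcb1b, a P-glycoprotein that exports drugs, was at 12.0, 11.3, 10.5 and 14.9 FPM on SFD and 46.6, 21.4, 37.5 and 28.2 FPM on HFD (1.46 ± 0.22, edgeR adjusted p = 0.0019). Its close relative Abcb1a stood at 0.69 ± 0.22 (edgeR adjusted p = 0.263). Slc22a29 belongs to a family of similar genes among which reads may be shared. Alpl, the alkaline phosphatase of the tubule brush border (chr4:137741733-137796384, minus strand), was tight in both groups, at 246, 274, 208 and 238 FPM on SFD and 573, 591, 566 and 586 FPM on HFD, and rose 2.4-fold (1.26 ± 0.19, edgeR adjusted p = 0.00198). Slc17a4, an anion transporter of the phosphate transporter family, rose by 1.19 ± 0.21 (edgeR adjusted p = 0.0076), a call lost without mice SFD2 and SFD4 (0.161) or HFD1 and SFD2 (0.0918). Atp6v0e2, a subunit of the vacuolar proton pump, rose by 0.98 ± 0.13 (edgeR adjusted p = 5.5e-04).

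Several of the higher genes encode enzymes of amino acid or carbon metabolism. Prodh2, the hydroxyproline dehydrogenase (chr7:30493622-30513402, plus strand), was at 49.9, 73.6, 54.8 and 57.2 FPM on SFD and 179, 197, 205 and 187 FPM on HFD, a 3.26-fold rise (1.70 ± 0.20, edgeR adjusted p = 5.1e-04). Gldc, the glycine-cleaving decarboxylase, was at 38.7, 58.4, 59.8 and 53.3 FPM on SFD and 166, 159, 216 and 140.1 FPM on HFD (1.70 ± 0.31, edgeR adjusted p = 0.0101). Both genes had wide gaps between the groups. Agxt2, a mitochondrial aminotransferase that acts on glyoxylate, rose by 0.81 ± 0.14, and Psat1, an enzyme of serine synthesis, by 1.20 ± 0.22 (edgeR adjusted p = 0.00463 and 0.00899). Gldc, Agxt2 and Psat1 were named after their values were seen. Without mice SFD2 and SFD4 the adjusted p of Gldc was 0.138 and that of Psat1 0.226, and without HFD1 and SFD2 the adjusted p of Gldc, Psat1 and Agxt2 was 0.0661, 0.101 and 0.0508. Ogdhl, a relative of the 2-oxoglutarate dehydrogenase, was at 1.19, 0.817, 2.71 and 1.88 FPM on SFD and 7.31, 10.1, 6.93 and 7.65 FPM on HFD (2.23 ± 0.28, edgeR adjusted p = 5.5e-04). Pklr, the pyruvate kinase of liver and red cells, was at 35.7, 29.3, 34.5 and 39.3 FPM on SFD and 74.0, 70.0, 71.5 and 81.1 FPM on HFD (1.09 ± 0.17, edgeR adjusted p = 0.00204) and was the only 1 of 15 glycolysis genes to pass, in a list with a median of -0.10, beside 0.778% called higher of all genes. Pklr overlaps Hcn3 on the other strand over 711 bases (22.0% of its exons), and Hcn3 stood at 0.77. None of the 14 genes of gluconeogenesis and fructose use passed. Their median log2 fold change was 0.19 and 12 of the 14 were above 0, beside 0.00 and 7359 of 15034 over all genes, with G6pc, the last enzyme of glucose release, at 0.88 ± 0.30 (edgeR adjusted p = 0.308).

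A few genes went from near silence to a clear if low level. Crb1, a polarity protein best known from the retina (chr1:139197056-139377100, minus strand), had 1, 0, 4 and 0 counts in the SFD kidneys and 80, 56, 73 and 68 counts in the HFD kidneys. Its HFD level was 3.49 ± 0.559 FPM (SD, n = 4) and the change was 5.79 ± 0.56 (edgeR adjusted p = 1.9e-04), the highest among the called genes. Gulo, the enzyme of the last step of vitamin C synthesis, a step known from the mouse liver (chr14:65986786-66009207, minus strand), had 0, 5, 3 and 4 counts on SFD and 100, 68, 50 and 86 on HFD (4.68 ± 0.53, edgeR adjusted p = 4.2e-04). Clic6, of the family of chloride intracellular channels (chr16:92485736-92541243, plus strand), had 2, 4, 11 and 1 counts on SFD and 106, 47, 270 and 80 on HFD, with mouse HFD3 far above the other HFD kidneys (4.97 ± 0.74, edgeR adjusted p = 0.00179, and 0.0667 without mice SFD2 and SFD4). In all 3 genes the lowest HFD kidney held several times the counts of the highest SFD kidney. With so few counts on SFD the folds are imprecise, and the SE may be too small. Altogether 19 of the 117 higher genes were below 1 FPM on SFD. Col8a1, a short-chain collagen, rose by 2.12 ± 0.26 (edgeR adjusted p = 5.1e-04).

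Detoxifying enzymes moved in both directions. Of 23 cytochrome P450 genes tested, 3 rose and 1 fell (median 0.09), where 0.778% of all genes tested were higher and 0.133% lower. The fall was that of Cyp2d12 (chr15:82555072-82560403, plus strand), at 328, 162, 94.9 and 121 FPM on SFD and 34.1, 29.3, 41.4 and 50.2 FPM on HFD, 4.55-fold lower (-2.19 ± 0.32, edgeR adjusted p = 0.00146). Mouse SFD1 was the highest, and the lowest SFD kidney was still well above the highest HFD kidney. Some of its relatives rose. Cyp2d26 was at 99.6, 183, 101 and 132 FPM on SFD and 292, 312, 274 and 271 FPM on HFD (1.16 ± 0.21, edgeR adjusted p = 0.0102), and Cyp2d22 rose by 0.63 ± 0.12 (edgeR adjusted p = 0.0125), a call lost without any of 3 single kidneys (adjusted p 0.05 to 0.0527). Cyp2d9, which is like them in sequence, stood at -0.13, and reads may be shared within the family. Cyp39a1, an oxysterol hydroxylase, rose by 0.64 ± 0.15 (edgeR adjusted p = 0.045) although its groups overlapped, a call that leaving out any of 6 single kidneys ended (adjusted p 0.0841 to 0.213). Outside the list, the neighbours Cyp2c69 and Cyp2c40 rose from traces. Cyp2c69 had 8, 4, 19 and 6 counts on SFD and 144, 82, 60 and 100 on HFD, and Cyp2c40 1, 0, 1 and 0 on SFD and 19, 13, 13 and 13 on HFD (edgeR adjusted p = 8.0e-04 and 0.00871). The call of Cyp2c40 was lost without mice SFD2 and SFD4 (0.178) or HFD1 and SFD2 (0.0806). The pair shares the promoter letters above, which are not the exons that reads come from. Whether reads of the pair can be told apart was not tested.

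Of 29 conjugation enzymes, 2 rose and 1 fell (median 0.02), again beside 0.778% and 0.133% of all genes. Ugt2b34, a glucuronosyltransferase, was at 7.37, 4.08, 7.26 and 7.13 FPM on SFD and 27.6, 23.4, 22.8 and 20.6 FPM on HFD, a 3.63-fold rise (1.86 ± 0.23, edgeR adjusted p = 5.5e-04). Gstt1, a glutathione transferase, rose by 0.76 ± 0.17 (edgeR adjusted p = 0.045), a call that did not survive the loss of any single kidney (adjusted p 0.0527 to 0.153). Ugt3a1, a sugar transferase of the tubule, was at 649.5, 683, 507 and 586 FPM on SFD and 323.5, 405, 393 and 389 FPM on HFD, 1.61-fold lower (-0.68 ± 0.14, edgeR adjusted p = 0.0195). Its groups did not overlap, and the call was lost without any of 4 single kidneys (adjusted p 0.0548 to 0.09). The more abundant Ugt3a2 stood at -0.13.

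Genes of lipid metabolism were among the lower genes. Idi1, the isomerase that makes the building blocks of cholesterol (chr13:8885501-8892451, plus strand), was at 128, 177, 175.5 and 172 FPM on SFD and 46.2, 66.8, 96.1 and 104 FPM on HFD, 2.08-fold lower (-1.06 ± 0.21, edgeR adjusted p = 0.0179). All HFD kidneys lay below all SFD kidneys, and the call was lost without any of 4 single kidneys (adjusted p 0.0504 to 0.0721). Idi1 was the only 1 of 19 cholesterol synthesis genes to pass. The list had a median log2 fold change of -0.32, beside 0.00 over all genes tested, and 18 of its 19 members were below 0, 9 of them at an unadjusted p under 0.05. Of all 15034 genes, 7359 stood above 0, 480 were lower at an unadjusted p under 0.05 and 0.133% were called lower. Cyp51, a sterol demethylase, stood at -0.43 ± 0.13 and Sqle, the squalene epoxidase, at -0.34 ± 0.17, neither passing (edgeR adjusted p = 0.194 and 0.683). Fads1, the delta-5 desaturase of long fatty acids (chr19:10182888-10196877, plus strand), was at 92.8, 101, 117 and 90.4 FPM on SFD and 58.0, 62.9, 78.2 and 71.7 FPM on HFD (-0.57 ± 0.10, edgeR adjusted p = 0.00899), without overlap. Its adjusted p was 0.0805 with the 8 WT kidneys alone and 0.0838 without mice HFD1 and SFD2. It alone passed among 20 genes of fatty acid and triglyceride synthesis, whose median was -0.20. Scd1, the stearoyl-CoA desaturase, stood at -1.10 ± 0.42 and Fasn, the fatty acid synthase, at -0.91 ± 0.48 (edgeR adjusted p = 0.46 and 0.717), with a wide spread between mice. The summed adipocyte markers, mostly Lpl and given below, went from a mean of 971 FPM on SFD to 499.8 FPM on HFD, without overlap. Their part in these results was not tested beyond the fits without some mice.

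Acsm3, a medium-chain acyl-CoA synthetase (chr7:119760923-119787513, plus strand), was at 374, 306, 450.5 and 512 FPM on SFD and 125, 198, 192 and 222 FPM on HFD, 2.23-fold lower (-1.16 ± 0.23, edgeR adjusted p = 0.0179). It shares 39.7% of its exon bases with Eri2 on the other strand (-0.34), and its call was lost without mouse SFD3 or SFD4 or mouse HFD1 (adjusted p 0.0584 to 0.069). Acox2, a peroxisomal oxidase of branched fatty acids and bile acid precursors, was at 141, 145, 148 and 180.3 FPM on SFD and 74.4, 103.5, 113 and 120.1 FPM on HFD (-0.58 ± 0.13, edgeR adjusted p = 0.0421). Its call was lost in 7 of the 8 omissions of 1 kidney (adjusted p 0.0516 to 0.148), and it was the 1 of 21 peroxisomal genes to pass. The enzymes of mitochondrial fatty acid oxidation showed no call in edgeR among 18 (median 0.02), and the PPAR-alpha targets none among 26 (median 0.02). Acadm, the abundant medium-chain acyl-CoA dehydrogenase, stood at -0.46 ± 0.12 (edgeR adjusted p = 0.0996) and was called by DESeq2 (adjusted p = 0.00254) and by edgeR on library totals without TMM (0.0493). Of 29 genes of lipid uptake, storage and export, Apoe alone passed in edgeR, where 0.911% of all genes were called. Lpl, the lipase that frees fatty acids from circulating lipoproteins, was at 648, 739.9, 895 and 935 FPM on SFD and 189, 415, 582 and 349.6 FPM on HFD, without overlap, and stood at -1.07 ± 0.27 (edgeR adjusted p = 0.0863). Lpl passed in DESeq2 (adjusted p = 0.00502) and in edgeR without mouse HFD3 (0.0206). It is also most of the summed adipocyte list, given below, which was lower on HFD without overlap.

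The other lower genes had varied roles. Igf2bp1, an RNA-binding protein of growing tissues (chr11:95957163-96005940, minus strand), was at 7.21, 5.91, 5.76 and 5.92 FPM on SFD and 1.57, 0.816, 1.76 and 1.43 FPM on HFD, 4.43-fold lower (-2.15 ± 0.25, edgeR adjusted p = 5.1e-04), the 1 lower gene past 0.001. Mas1, the receptor for angiotensin-(1-7) (chr17:12841079-12868143, minus strand), was at 3.04, 3.27, 3.67 and 4.93 FPM on SFD and 0.879, 0.970, 1.19 and 0.908 FPM on HFD (-1.92 ± 0.39, edgeR adjusted p = 0.024). It was the 1 of 7 renin-angiotensin genes to pass, and leaving out any of 6 single kidneys ended the call (adjusted p 0.0517 to 0.0965). Col5a2, a chain of collagen V, was at 18.7, 18.7, 21.5 and 24.7 FPM on SFD and 10.4, 10.1, 8.64 and 7.41 FPM on HFD (-1.19 ± 0.19, edgeR adjusted p = 0.00261). It was the only called gene of 32 matrix and fibrosis genes, of which 25 were above 0 with a median of 0.12. The collagen Col8a1, called higher as given above, is outside this list. Of all 15034 genes, 0.133% were called lower and 7359 were above 0. Tmprss9, a membrane serine protease, fell by 1.60, Fgfbp1, a carrier of fibroblast growth factors, by 0.91, Lrrc3 by 0.77 and Aifm3 by 0.74 on the log2 scale (edgeR adjusted p = 0.0159, 0.0288, 0.0115 and 0.019). Of the 8 omissions of 1 kidney, 7 ended the call of Fgfbp1 (adjusted p 0.0545 to 0.107), 3 that of Tmprss9, 3 that of Aifm3 and 1 that of Lrrc3 (0.0511).

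Some of the called genes are known from immune cells and complement. Cxcl16, a chemokine of tubule and myeloid cells, was at 28.8, 27.3, 31.3 and 30.9 FPM on SFD and 48.8, 54.6, 41.0 and 47.9 FPM on HFD (0.70 ± 0.14, edgeR adjusted p = 0.0195). It shares 552 exon bases with the opposite gene Zmynd15, itself called at 0.79 ± 0.13. H2-DMb1, a chaperone of MHC class II peptide loading, was at 14.9, 13.7, 19.4 and 15.8 FPM on SFD and 33.6, 44.7, 25.0 and 31.8 FPM on HFD (1.08 ± 0.21, edgeR adjusted p = 0.0163). Each was the single called gene of its list, beside 0.911% called of all genes tested. Among 31 inflammation genes 26 were above 0 (median 0.35), and among 20 genes of MHC and antigen presentation 18 were above 0 (median 0.28), beside 7359 of 15034 and 0.00 over all genes tested. The 38 interferon-response genes had a median of -0.05 and no call, and the abundant Ifi27 stood at 0.03 ± 0.19.

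Named after their values were seen were further immune genes. The complement genes C1ra, Cfi and Mbl2 rose by 0.94 ± 0.17, 1.00 ± 0.22 and 2.30 ± 0.52, the myeloid receptors Fcgr4, Itgax and Itgad by 1.23 ± 0.24, 0.91 ± 0.20 and 3.29 ± 0.75, and the alarmin Il33 by 0.63 ± 0.14 (edgeR adjusted p = 0.0101, 0.0366, 0.0446, 0.0153, 0.0388, 0.0496 and 0.0366). Mbl2 had at most 14 counts in any kidney. Itgad overlapped between the groups through mouse HFD1, which had 4 counts. Except for C1ra, each of these 7 and both Cxcl16 and H2-DMb1 lost the call in at least 4 of the 8 omissions of 1 kidney (adjusted p up to 0.175), and the call of C1ra was lost without mice SFD2 and SFD4 (0.164) or HFD1 and SFD2 (0.118). The summed level of 10 macrophage markers, given below, overlapped between the diets. All 9 tested were above 0 (median 0.35), and 4 were higher at an unadjusted p under 0.05 in edgeR, beside 708 of 15034 genes. The part of macrophages in these results was not tested.

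Among regulators, Sox9, a transcription factor known from repairing tubules, had 17, 3, 19 and 7 counts on SFD and 57, 37, 54 and 47 on HFD (2.21 ± 0.41, edgeR adjusted p = 0.0101). Without mice SFD2 and SFD4 its adjusted p was 0.192, and without HFD1 and SFD2 0.0838. It was the 1 of 21 tubule injury genes to pass, in a list with a median of -0.04, beside 0.778% called higher of all genes. Havcr1 (KIM-1), the common marker of proximal tubule injury, was at 0.488, 2.64, 1.30 and 0.807 FPM on SFD and 0.879, 0.663, 0.739 and 1.15 FPM on HFD, and Lcn2 (NGAL), another injury marker, at 3.31, 4.27, 2.54 and 1.35 FPM and 7.96, 2.76, 3.64 and 3.06 FPM. Both overlapped between the diets, and neither passed (edgeR adjusted p = 0.912 and 0.84). Bhlhe40, a repressor in the circadian clock, was at 74.5, 70.1, 60.4 and 75.1 FPM on SFD and 131, 123, 129 and 116.5 FPM on HFD (0.83 ± 0.11, edgeR adjusted p = 8.0e-04), tight in both groups. The other 17 clock genes tested did not pass, and 13 of the 18 were above 0. Per2 stood at 1.20 ± 0.39 and Dbp at 1.01 ± 0.48, while Npas2 stood at -1.45 ± 0.54 and Arntl, whose product drives the Per genes, at -1.08 ± 0.54 (edgeR adjusted p = 0.285, 0.634, 0.417 and 0.674). The median of the clock list was 0.54, and -0.02 under the same diets in KO mice. Medians were also lower in KO for inflammation (0.35 in WT and 0.09 in KO), MHC and antigen presentation (0.28 and 0.15) and macrophage markers (0.35 and 0.03). Other lists went the other way, such as phosphate, calcium and vitamin D (-0.01 and 0.27). List medians were not tested between the genotypes. The hour at which each mouse was killed is not given in the sources used here.

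**Figure D3:**
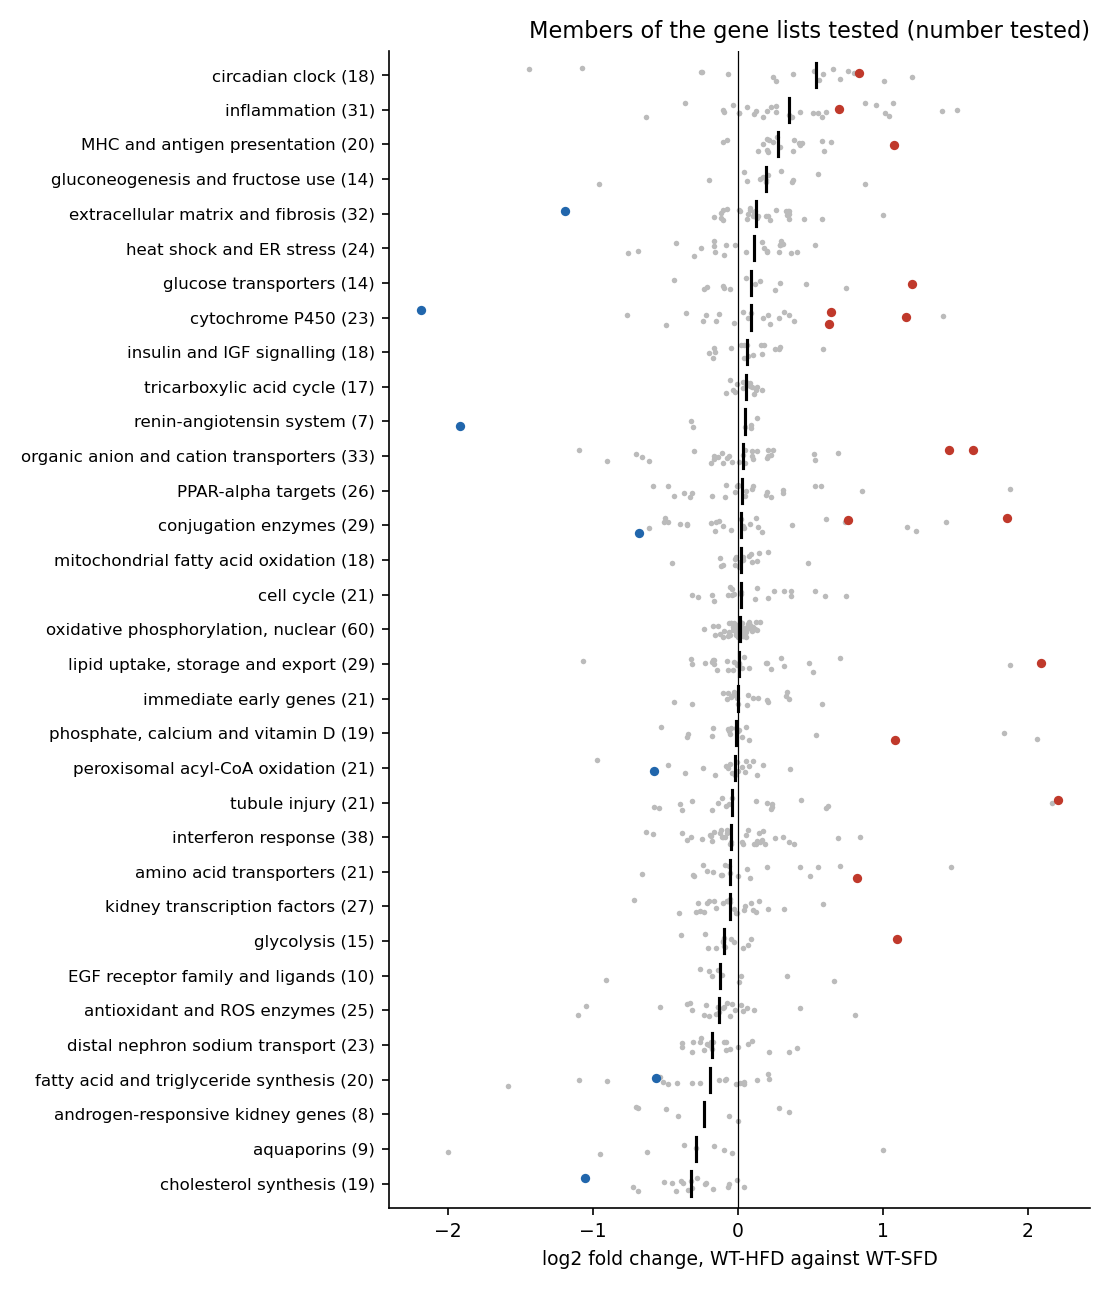
Log2 fold change of WT-HFD over WT-SFD for the tested members of 33 gene lists (1 point per gene, number tested in brackets), with called genes in red (higher) or blue (lower) and a bar at the median. Medians run from -0.32 in cholesterol synthesis to 0.54 in the circadian clock, and 17 lists hold a called gene.

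Taking the 33 lists of function as 1 set, 709 distinct genes were tested and 16 were higher (2.26%, beside 0.778% of all genes) and 7 lower (0.987%, beside 0.133%), with a median of 0.01. The lists were drawn up with earlier results of these data known, so these shares describe them only. DESeq2 called 44 list members where edgeR called 23, and the counts that follow are those of edgeR. Several systems of the kidney showed no call. None of 60 nuclear genes of oxidative phosphorylation (median 0.01, Atp5b at 0.00 ± 0.12) and none of 17 tricarboxylic acid cycle genes (median 0.06, Sdha at 0.13 ± 0.09) passed, and in neither list was any gene under an unadjusted p of 0.05. No call was made among 23 genes of distal sodium transport (median -0.18), a list that also holds the proximal Slc9a3 and Slc4a4. The same held for 9 aquaporins (median -0.29, Aqp1 at -0.10 ± 0.11), 18 genes of insulin and IGF signalling (median 0.07, Igfbp7 at 0.04 ± 0.11) and 27 kidney transcription factors (median -0.06, Hnf4a at -0.06 ± 0.11). Nor did any pass among 25 antioxidant genes (median -0.13, Gpx3 at 0.43 ± 0.21), 24 of heat shock and ER stress (median 0.11, Hsp90ab1 at -0.16 ± 0.11), 21 immediate early genes (median 0.00, Jund at -0.44 ± 0.19), 21 of the cell cycle (median 0.02, Ccnd1 at 0.32 ± 0.13) and 8 androgen-responsive genes (median -0.24, Kap at -0.41 ± 0.23).

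No change of the epidermal growth factor receptor itself was detected. Egfr was at 58.4, 39.1, 51.0 and 53.0 FPM on SFD and 47.5, 36.9, 56.6 and 42.7 FPM on HFD (-0.13 ± 0.13, edgeR adjusted p = 0.942), with overlapping ranges. Erbb2, its partner, was at 123, 126, 111 and 104 FPM and 117, 104, 110.5 and 99.3 FPM (-0.11 ± 0.09, edgeR adjusted p = 0.907). None of the 10 genes of the family and its ligands passed. The abundant Egf, made in the distal nephron, stood at -0.26 ± 0.17, the ligand Nrg1 at -0.91 ± 0.27 and the feedback inhibitor Errfi1 at 0.66 ± 0.20 (edgeR adjusted p = 0.838, 0.201 and 0.206). Since the mice are WT, no deletion of Egfr is present in either group.

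Markers of the nephron segments were present, as the tissue label says. The summed level of 14 proximal tubule markers was 39950, 36900, 41850 and 51970 FPM on SFD and 31980, 48440, 40510 and 42760 FPM on HFD, and Slc5a2 was the 1 member that rose. Kap, the most abundant of them per length, was at 7973, 17830, 13920 and 14760 FPM on HFD, lowest in mouse HFD1, and at 15680, 14870, 19460 and 22600 FPM on SFD. Markers of the late proximal tubule, the thick ascending limb, the distal convoluted tubule and the principal cells overlapped between the diets and held no call. The 6 thick ascending limb markers tested were all below 0 (median -0.25). The 7 intercalated cell markers summed to 389.7, 513.5, 409.9 and 373 FPM on SFD and 319.5, 323.5, 331 and 328 FPM on HFD, without overlap, and all 7 were below 0, none passing. Podocyte, endothelial, mural, juxtaglomerular, fibroblast, lymphocyte, neutrophil and red cell lists also overlapped and held no call. All 7 fibroblast, 8 T and NK, 3 neutrophil and 4 red cell markers tested were above 0. The 2 juxtaglomerular markers were below 0. Of all 15034 genes, 7359 were above 0. The macrophage markers summed to 193.9, 253.6, 301 and 187 FPM on SFD and 287, 334, 240.4 and 276.5 FPM on HFD, with Lyz2 the most abundant per length, Cx3cr1 at 0 and all 9 tested above 0. Macrophage Cx3cr1, endothelial Cdh5 and Esam, mural Tagln and Cnn1, and T-cell Cd3e, Cd3d and Cd3g were at 0 in every WT kidney. All lie in the regions without counts.

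Markers of neighbouring tissue differed between single mice. Cfd, a defining adipocyte gene, was at 6.51, 72.4, 8.09 and 73.0 FPM on SFD and 4.997, 1.99, 1.14 and 2.06 FPM on HFD, high in mice SFD2 and SFD4 only, and Adipoq was likewise highest in these mice. The summed adipocyte list was 719, 1010, 975 and 1181 FPM on SFD and 339, 542.5, 668 and 449.9 FPM on HFD, without overlap, and most of it was Lpl, which kidney cells express too. Besides Lpl, Cfd was lower and Lep higher on HFD without overlap, while all other members overlapped between the diets. Fabp4, the next most abundant member, was at 52.2, 117.7, 57.0 and 82.9 FPM on SFD and 83.0, 78.3, 65.0 and 66.9 FPM on HFD. Adrenal, pancreatic and skeletal muscle markers summed to at most 3.42 FPM in any kidney, with no call. The liver list was higher without overlap, 332, 194, 280.4 and 431 FPM on SFD and 576, 618, 496 and 607 FPM on HFD. Ttr was its most abundant member per length and its 1 called gene. It was also the only member without overlap between the diets, though all 4 members tested were above 0. Serpina1a was at 245, 108, 196 and 281 FPM and 318, 343, 214 and 301 FPM, Alb, the most abundant liver transcript, at no more than 13.1 FPM in any kidney, and Apoc3, in a region without counts, at 0. The 8 B-cell markers summed to 76.2, 107.9, 388 and 60.8 FPM on SFD and 764, 699.8, 109 and 143 FPM on HFD, highest in mice HFD1 and HFD2. Ren1, the renin gene, was at 39.8, 143, 55.3 and 59.5 FPM on SFD and 50.6, 58.5, 57.6 and 72.4 FPM on HFD, high in mouse SFD2 alone (-0.31 ± 0.33, edgeR adjusted p = 0.95). The part of fat, liver transcripts, blood cells and these single mice in the gene results was not tested beyond the fits without some of these mice.

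In KO mice, which share no animal with the WT groups, the same diets gave 346 called genes of 15034 (2.30%), 230 higher and 116 lower. Of the 137 genes called in WT, 104 were called in the same direction in KO, 90 higher and 14 lower, which is 75.9% of the WT and 30.1% of the KO calls. 136 of the 137 had the same sign in KO, all but Cyp39a1. The share of all genes with the same sign in both genotypes was not computed. The genes were chosen on their WT values, and in KO their median log2 fold change was 1.22 for the higher and -0.83 for the lower. Conversely, of 242 genes called in KO but not in WT, 233 had the same sign in WT, and 141 of them an unadjusted p under 0.05 there. Of all 15034 genes, 1188 had an unadjusted p under 0.05 in WT, in either direction. When the genotypes were fitted apart, 111 genes were called in WT and 228 in KO, 75 of them in both.

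Among the genes described, Apoe changed by 1.61 ± 0.22 in KO (edgeR adjusted p = 6.3e-04), Slc5a2 by 1.54 ± 0.21 (6.3e-04), Prodh2 by 1.85 ± 0.21 (1.6e-04), Crb1 by 6.40 ± 0.64 (5.8e-05), Cyp2d12 by -2.12 ± 0.32 (0.00123) and Igf2bp1 by -2.03 ± 0.25 (3.8e-04). Each of these moved the way it did in WT. Of the 9 called immune genes described, Mbl2 was called in KO (2.40 ± 0.55, edgeR adjusted p = 0.0278). The other 8 had the same sign and were not called (edgeR adjusted p = 0.0673 to 0.34), which alone does not show a difference between the genotypes.

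**Figure D4:**
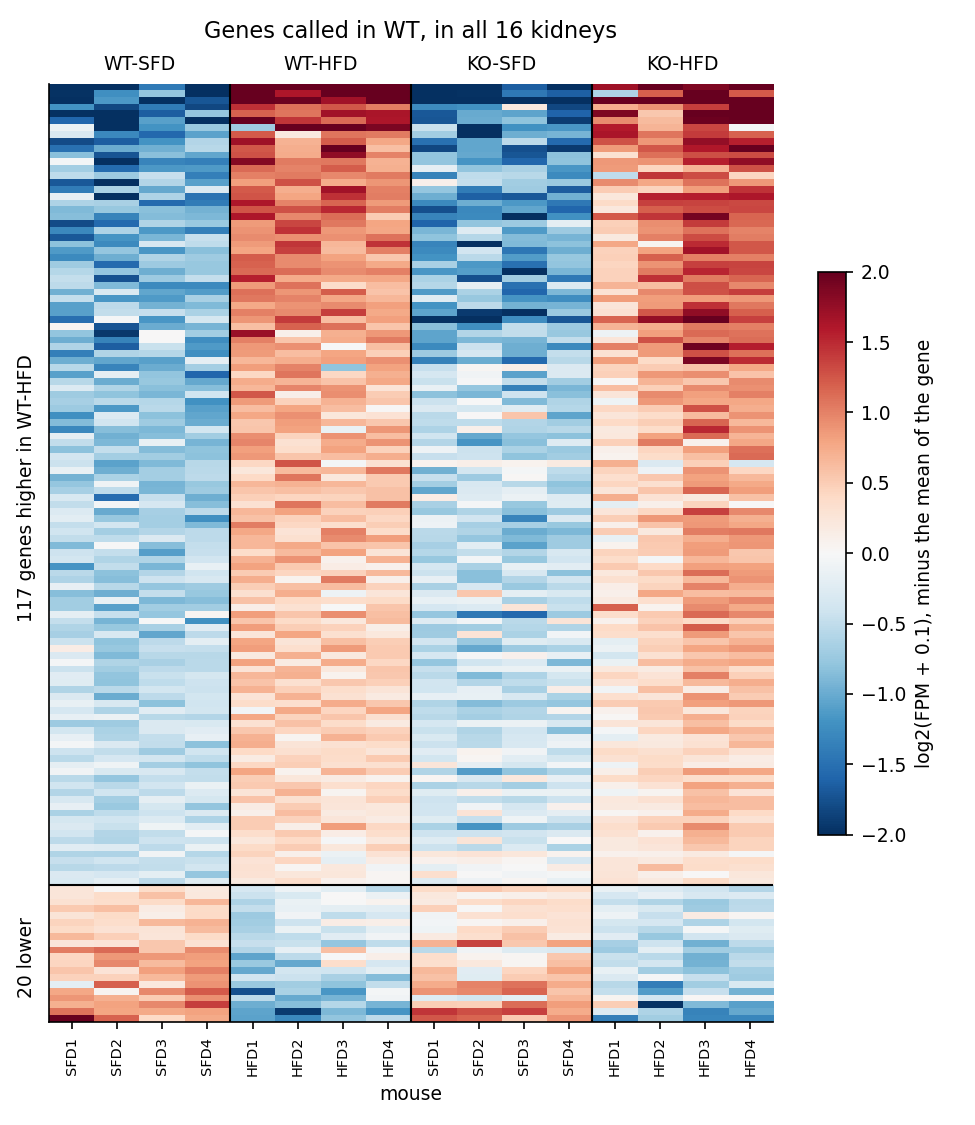
Each row is 1 of the 137 genes called in WT and each column 1 kidney; colour is log2(FPM + 0.1) minus the mean of the gene over all 16 kidneys, clipped at ± 2. WT-HFD kidneys stand against WT-SFD kidneys by selection, and the KO kidneys, which entered the choice of genes through the filter on low counts, the adjustment and the estimate of spread of the joint fit, show 136 genes with the same sign of the group difference.

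The difference of the diet effect between KO and WT was tested directly. It was called for 0 of 15034 genes (0%), though 486 had an unadjusted p under 0.05, and DESeq2 called 1, Ccl28. Ccl28, an epithelial chemokine, stood at -0.02 ± 0.25 in WT and 1.67 ± 0.25 in KO, with a KO minus WT difference of 1.69 ± 0.35 (unadjusted p = 1.8e-04 in edgeR, adjusted p = 1). The other genes with the smallest p values were Gltpd2, Dlgap3, C430014B12Rik and Gstm7, with differences of -1.56 ± 0.35, -2.57 ± 0.58, 1.90 ± 0.44 and -0.86 ± 0.20, and none was called in WT. Of the 137 WT-called genes, 19 had an unadjusted p under 0.05 for the difference. For Apoe, KO minus WT was -0.49, 95% interval -1.14 to 0.17, for Slc5a2 0.33, 95% interval -0.30 to 0.96 and for Fcgr4 -0.71, 95% interval -1.45 to 0.02 on the log2 scale. The intervals of Gulo (2.57, 95% interval 0.32 to 4.81) and Cyp39a1 (-0.76, 95% interval -1.21 to -0.32) lay to one side of 0 before adjustment. The median SE of the difference among the called genes was 0.30, so a gene without a call here may still respond differently in the genotypes.

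**Figure D5:**
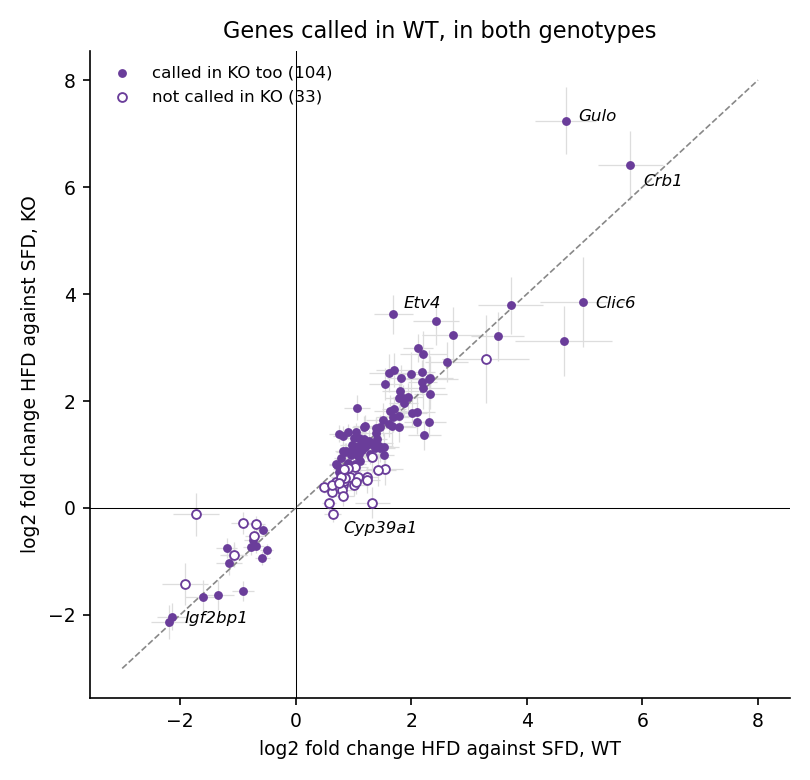
Log2 fold change of HFD over SFD in WT (horizontal) and KO (vertical) for the 137 genes called in WT, with bars of 1 SE, filled where also called in KO (104) and open where not (33). Of the genes off the dashed line of equal change, Gulo (4.68 in WT, 7.24 in KO) and Etv4 (1.69 and 3.62) lie far above it, and Cyp39a1 lies just below 0 in KO; the choice of genes by their WT value favours larger WT changes.

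In the aortae of WT mice on the same diets, fitted apart, no gene of 14796 was called (0%, 2464 at an unadjusted p under 0.05 in edgeR). Of the 137 kidney genes, 83 were tested there and 42 had the same sign. Apoe stood at -0.31 in the aorta (edgeR adjusted p = 0.397), and Gc, Prodh2 and Cyp2d12 were too low there to be tested. Mouse SFD1 is the 1 WT mouse found in both tissues.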

How the data were processed

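Kidney RNA of 16 mice was sequenced as paired ends after removal of ribosomal RNA. The deposited kidney values are raw counts per gene, which the authors made with Bowtie2, Tophat2 and featureCounts on GRCm38 from reads trimmed by the sequencing company, with gene names from BiomaRt. The strand setting and the annotation release used for counting are not given in the sources used here. Counts were tested as deposited with edgeR 4.0.16 (R 4.3.3), quasi-likelihood F test, TMM factors and filterByExpr, in 1 fit of all 16 kidneys with 1 coefficient per group, with Benjamini-Hochberg adjustment over 15034 genes. Genes with an adjusted p below 0.05 are referred to as called. FPM are counts scaled to the TMM-adjusted library size and given per 1e6. The labels give each mouse its own number but no litter or batch, so p-values measure the spread between these mice. Gene positions are from GENCODE vM21, in which 40254 genes were found. DESeq2 1.42.0, limma 3.58.1 and the settings named in the closing section were alternatives. The test was run on simulated counts in which only well-counted genes were changed and genes of like level had the same spread. That run therefore does not cover genes with few counts, such as Crb1, or spread particular to a gene.

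Named genes were the 12 higher and 12 lower called genes with the smallest p (at least 1 FPM in the higher group, no overlap of groups, no predicted genes), called members of the lists, the largest folds, Egfr, Erbb2, Ren1, Havcr1 and Lcn2, and the 5 smallest p of the genotype difference. Others are said to have been named after their values were seen, as were Alpl, Slc17a4, Slc38a4, Cyp2c69, Cyp2c40, Zmynd15, Etv4, the genes overlapping a called gene and the list members given as examples without a call. The comparison and the gene lists were chosen with earlier results of these data known. Some genes that these rules name are not reported here.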

Additional observations from a re-analysis of the deposited data

Results flagged for a closer look

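In 242 groups of 4 kidneys the highest or lowest value was set against the other 3, and 17 (7.02%) stood apart by more than Dixon's 95% critical share of the range of the group, where chance gives about 1 in 20. No cause was tested. Values are FPM. Among called genes, Apoe in mouse HFD2 was 1928, beside 1211 to 1322 in the others, and Ttr in mouse SFD4 was 133, beside 71.2 to 76.2. Mouse SFD2 was low in Col8a1 (1.45, beside 1.97 to 2.06) and Ugt2b34 (4.08, beside 7.13 to 7.37). Mouse SFD1 was high in Igf2bp1 (7.21, beside 5.76 to 5.92) and low in Idi1 (128, beside 172 to 177). Mouse SFD3 was high in Cyp39a1 (8.77, beside 5.97 to 6.19) and Tfpi2 (5.14, beside 4.35 to 4.45).

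Among genes not called, Jund in mouse SFD2 was 481 (others 255 to 287), Plvap, of fenestrated endothelium, in the same mouse 418 (others 286 to 299.8), and the summed endothelial markers there 922 (others 762 to 779.5). Sdha in mouse SFD4 was 1154 (others 1027 to 1045). In mouse SFD3, Igkc, an immunoglobulin light chain, was 256 (others 36.1 to 72.4) and the summed B-cell markers 388 (others 60.8 to 107.9). Mouse HFD1 was low in Csf1r, a macrophage receptor (77.1, others 86.0 to 87.5), and high in Lcn2 (7.96, others 2.76 to 3.64). Dlgap3 in mouse HFD2 was 1.48 (others 0.648 to 0.739).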

How the results depend on the processing

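All 137 called genes kept their direction in each setting in which they were tested. The count of 137 was 131 to 142 with other scalings, limma-voom, no filter on low counts or a limit of 1 FPM, 111 with the 8 WT kidneys alone and 92 to 116 without any 1 kidney. DESeq2 called 263, 202 higher and 61 lower, 136 of them shared. Leaving out 2 kidneys, chosen after seeing the data, gave 57 calls without mice SFD2 and SFD4 and 75 without mouse HFD1 and mouse SFD2. The 23 calls at 0.001 became 107 with DESeq2, 44 without the filter, 7 with WT kidneys alone, 0 to 8 without any 1 kidney and 0 in both fits without 2 kidneys. The 23 called list members became 44 with DESeq2, 15 to 25 without any 1 kidney, and 10 and 13 without 2. The difference between genotypes had 1 call in DESeq2 and 0 otherwise. The effect size rule gave 473 genes without its FPM limit and 154 to 212 without any 1 kidney, where the main value is 167. Of 59 called named genes, 23 passed in all 18 settings and 36 lost the call in at least 1. With the 8 WT kidneys alone, Fads1, Tmprss9, Idi1, Fgfbp1, Acox2, Cyp39a1, Cfi, Fcgr4, Itgax and Il33 lost the call (adjusted p 0.0501 to 0.228). Other scalings, limma-voom or no filter ended it for Cyp39a1 in 5 settings (0.0506 to 0.0929), Itgad and Il33 in 3 each (0.0513 to 0.262 and 0.0507 to 0.0963), Mbl2 in 2 (0.0552 and 0.0693), Itgax with limma-voom (0.0597) and Ugt3a1 with library totals (0.0527). Idi1 was also lost without mice HFD1 and SFD2 (0.0904). No paired analysis was possible because the labels give the mice of different diets no number in common. Low counts limit Crb1, Gulo, Clic6, Cyp2c40 and Mbl2, and regions without counts were not analysed here.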

Other observations

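Cyp24a1, the enzyme that degrades active vitamin D, was at 58.7, 86.8, 10.0 and 55.7 FPM on SFD and 280.3, 336, 120 and 145 FPM on HFD, lowest in mouse SFD3, and stood at 2.07 ± 0.71 (edgeR adjusted p = 0.325). Cyp27b1, which makes active vitamin D, was at 3.36, 1.07, 3.02 and 3.45 FPM on SFD and 9.21, 2.76, 16.6 and 10.9 FPM on HFD (1.83 ± 0.56, edgeR adjusted p = 0.209). Neither passed.

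Lep, the adipocyte hormone leptin, was at 0, 0.691, 0.206 and 1.57 FPM on SFD and 4.53, 7.14, 2.39 and 5.97 FPM on HFD, without overlap (3.02 ± 0.81, edgeR adjusted p = 0.122). Cfd and the summed adipocyte markers, mostly Lpl, were lower on HFD, while the other adipocyte markers overlapped.

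Nnt, a mitochondrial transhydrogenase that carries a deletion in C57BL/6J and not in C57BL/6N mice, was at 298, 258.5, 213 and 219 FPM on SFD and 223, 291, 138.5 and 133.5 FPM on HFD (-0.33 ± 0.20, edgeR adjusted p = 0.808). Mice HFD3 and HFD4 had the lowest levels of the 8. The substrain of single mice is not in the labels, and its part in the results was not tested.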
